A study of Mus musculus with 6 samples.

Results

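The genes of neutrophils and other granulocytes were followed in RNA from limb bones of mouse pups, in libraries from Hdac3 CKO pups and from WT pups. A list of 38 symbols defined the set, and a row of the deposited count table belonged to it when its gene name was one of them. This found 36 of the 43346 rows. Mmp8l matched no row, and the table carries Chi3l3 under the symbol Chil3, which is described separately. The list had been put together with earlier results of these data known, and Retnlg, Olfm4, Aqp9, BC117090 and Stfa2l1 were already among the largest falls named there. Counts over the members are therefore a description and not evidence of their direction.

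The study asked how loss of the histone deacetylase gene Hdac3 in limb mesenchyme affects forming bone. The 3 Hdac3 CKO libraries came from pups with a conditional knockout of Hdac3 by Prx1, and the 3 WT libraries from wild type pups, all of strain C57BL/6 and 1 day old. Cre transgenes under the Prx1 enhancer act in limb bud mesenchyme, which forms bone and cartilage but not blood cells. The sources used here do not state whether the WT pups carried a floxed allele or a Cre transgene, or whether each library is 1 animal. The p-values therefore cover the spread among 6 libraries, part of which may be technical.

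Neutrophils are made in bone marrow from progenitors through promyelocyte, myelocyte and metamyelocyte stages. Promyelocytes fill the early, azurophil granules with myeloperoxidase (Mpo) and serine proteases (Elane, Prtn3, Ctsg). Myelocytes and later stages fill the late, specific and gelatinase granules with lactoferrin (Ltf), cathelicidin (Camp) and related proteins under the transcription factor C/EBP-epsilon. Mature cells carry large amounts of the calcium-binding proteins S100A8 and S100A9 and leave the marrow under signals that include G-CSF, whose receptor is Csf3r. In the mouse the marrow of the long bones is colonised by blood-forming cells around birth.

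The promoters of a few members are shown first because the stages just named are controlled by C/EBP factors and by PU.1, whose sites lie in many myeloid promoters. RefSeq starts on GRCm38.p6, the assembly of the mm10 build used for the counts, were at hand for 31 of the 36 members. In the 250 bases before each start, the C/EBP letters TTGCNNAA and the PU.1 letters GAGGAAGT were searched on both strands. Each line gives 1 such window on the gene's own strand, 5′ to 3′, ending at the base before the start, and capitals mark a match to either motif.
S100a8 (chr3:90668821-90669070, + strand): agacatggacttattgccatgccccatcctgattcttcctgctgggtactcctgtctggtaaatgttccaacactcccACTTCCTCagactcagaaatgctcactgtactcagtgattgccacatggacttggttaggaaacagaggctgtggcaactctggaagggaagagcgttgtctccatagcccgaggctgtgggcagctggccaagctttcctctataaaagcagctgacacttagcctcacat
S100a9 (chr3:90695722-90695971, - strand): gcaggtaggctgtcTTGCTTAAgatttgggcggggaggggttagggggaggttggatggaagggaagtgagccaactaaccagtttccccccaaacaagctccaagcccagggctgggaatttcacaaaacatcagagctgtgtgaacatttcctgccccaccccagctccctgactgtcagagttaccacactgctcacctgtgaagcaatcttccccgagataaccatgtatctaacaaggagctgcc
Ngp (chr9:110419558-110419807, + strand): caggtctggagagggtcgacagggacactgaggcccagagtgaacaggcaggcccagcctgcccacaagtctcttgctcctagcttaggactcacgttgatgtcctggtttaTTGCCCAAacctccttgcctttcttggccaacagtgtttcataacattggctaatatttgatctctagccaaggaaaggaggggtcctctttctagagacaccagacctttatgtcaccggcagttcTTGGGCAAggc
Ltf (chr9:111019042-111019291, + strand): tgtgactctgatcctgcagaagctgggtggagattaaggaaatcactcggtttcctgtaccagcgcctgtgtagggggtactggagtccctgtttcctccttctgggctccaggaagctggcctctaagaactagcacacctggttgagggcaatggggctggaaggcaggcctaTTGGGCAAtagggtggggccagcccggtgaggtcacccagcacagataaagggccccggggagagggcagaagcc
Elane (chr10:79886062-79886311, + strand): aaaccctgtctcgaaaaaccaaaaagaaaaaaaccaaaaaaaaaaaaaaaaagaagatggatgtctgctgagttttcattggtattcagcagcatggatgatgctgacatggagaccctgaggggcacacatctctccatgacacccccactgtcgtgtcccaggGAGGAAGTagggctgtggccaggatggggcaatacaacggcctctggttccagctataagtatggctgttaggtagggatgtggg

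The Ngp window held 2 C/EBP matches, with first bases 138 and 11 bases before the start, and the Ltf window held 1 at 75. S100a9 held 1 at 236, while S100a8 held a PU.1 match at 172 and no C/EBP match. Elane held a PU.1 match at 85. A C/EBP match was present in 11 of the 31 members (35.5%), against 9.55% of 27025 promoters of the same length. A PU.1 match was present in 7 of 31 (22.6%), against 2.44% of all promoters. No C/EBP and PU.1 match overlapped. By role, 4 of 7 late granule promoters held C/EBP letters and 1 held PU.1 letters, whereas 0 of 5 early granule promoters held C/EBP letters and 3 held PU.1 letters. For 29 of the 31 windows the bases after the start were found at the start of the gene's transcript. They were not for Retnlg, 1 of the 11 with C/EBP letters, or for Trem1. The starts used for Il1r2, Prtn3 and Aqp9 lie well inside the gene bounds of the count table. The motif matches are descriptions of letters, and no binding was measured.

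Total counts per library ranged from 43389262 to 50927978. Hdac3 itself, the targeted gene, stood at 31.8, 29.4 and 28.3 CPM in Hdac3 CKO bones, against 48.4, 47.4 and 50.3 CPM in WT bones, which is -0.71 ± 0.12 (SE) as a log2 fold change. The adjusted p was 0.0289 by the quasi-likelihood test of edgeR, and Hdac3 passed in 1 of the 6 fits that left out 1 library. Levels are CPM, counts scaled to library size after TMM normalisation, and fold changes are Hdac3 CKO over WT. A gene is said to have fallen or risen at an adjusted p under 0.05 in that test over all 20210 genes tested. The libraries differed in ways apart from genotype. Summed CPM of 8 cartilage genes was 14299 in Hdac3 CKO replicate 3 and 6804 in WT replicate 3, against 776 to 1416 in the other 4 libraries. The labelled tissue was checked with 8 osteoblast genes, whose summed CPM was 39308 to 58786 in Hdac3 CKO and 24822 to 33408 in WT. Muscle genes, 8 in number, summed to 31060 to 51242 CPM in Hdac3 CKO and 27793 to 34146 CPM in WT, although soft tissue had been removed. Summed CPM of 4 Y-linked genes was 132 in Hdac3 CKO replicate 3 and 1.71 to 5.60 in the other 5 libraries.

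Of the 36 members, 11 fell and 0 rose in Hdac3 CKO bones. The members that fell were S100a8, S100a9, Retnlg, Stfa2l1, BC117090, Camp, Ngp, Olfm4, Csf3r, Cd177 and Aqp9. Across all genes tested, 0.45% fell and 0.668% rose. At an unadjusted p under 0.05 in edgeR 28 members were lower and 0 higher, where 7.0% of all genes tested were lower and 7.68% higher. DESeq2 called 19 members lower and 0 higher, against 2.12% and 2.64% of the genes it gave an adjusted p. The fitted log2 fold change was below 0 for all 36 members when no count filter was applied, with a median of -1.91, against a median of -0.014 over 30868 genes. With the filter it was below 0 for all 34 members tested, where 49.9% of all genes tested were below 0. In 28 of the 36 all Hdac3 CKO libraries lay below all WT libraries, as did 10.9% of all genes tested. The other 8 members, Prtn3, Ctsg, Ms4a3, Anxa1, Fpr1, Clec5a, Il1r2 and Pilra, overlapped between the genotypes. In whole tissue, fewer granulocytes and less of these RNAs per granulocyte cannot be told apart.

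The filter on low counts removed Cebpe and Fcnb. A further 8 members, Elane, Ms4a3, BC117090, Trem3, Ly6g, Itgb2l, Aqp9 and Prg2, reached the filter's level in all WT libraries but not in all Hdac3 CKO libraries, so they entered the test through the group in which they were higher.

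**Figure D1:**
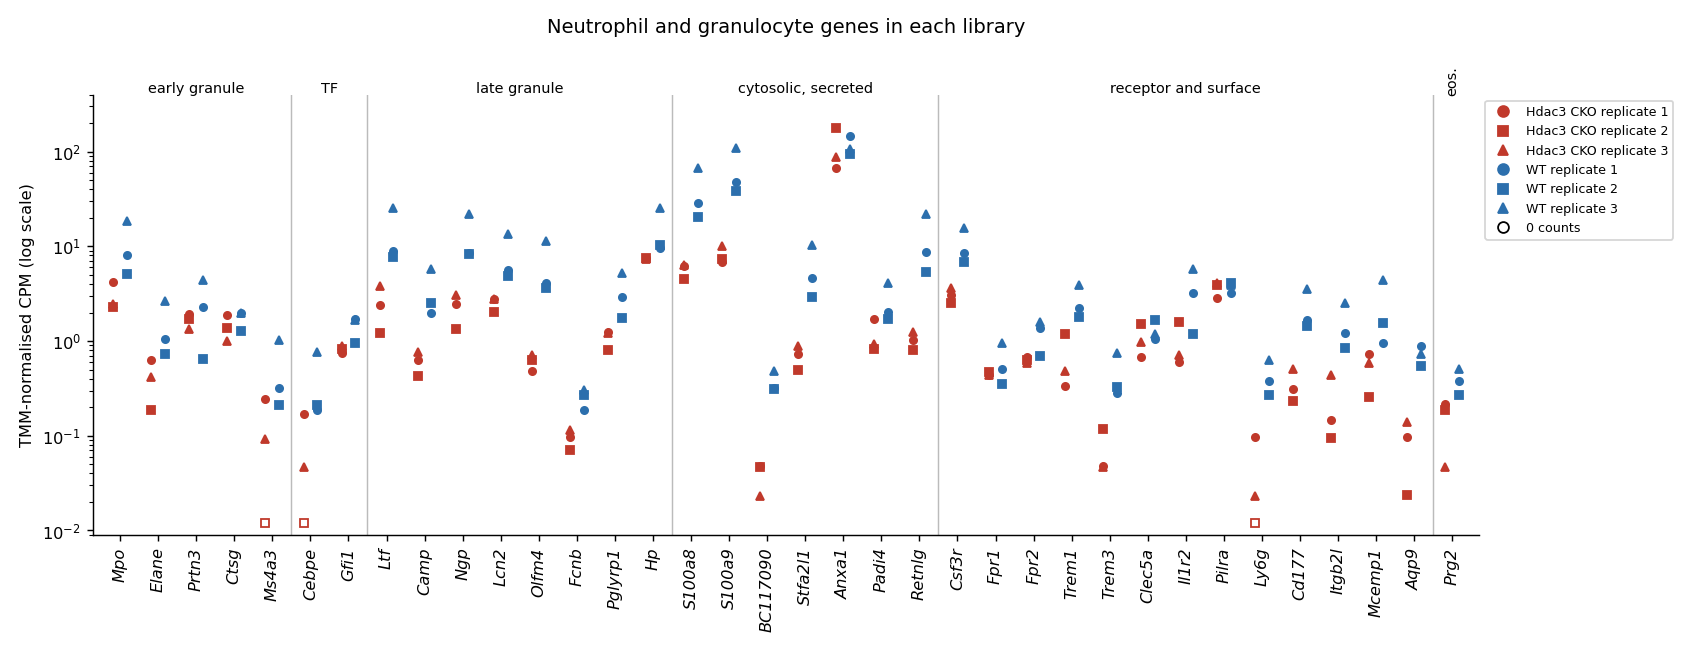
TMM-normalised CPM (log axis) of the 36 members in each library, with Hdac3 CKO libraries in red on the left and WT libraries in blue on the right of each gene; open symbols at the bottom stand for 0 counts, TF marks transcription factors and eos. the eosinophil gene. WT replicate 3 (blue triangles) was the highest WT library for 31 of the 36 genes, and 28 genes had all red points below all blue points.

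The calcium-binding pair S100a8 and S100a9, whose products form calprotectin and make up much of the neutrophil cytosol, fell. They lie close together on chromosome 3 (S100a8 at 90669071 to 90670034 and S100a9 at 90692632 to 90695721, mm10). S100a8 stood at 6.13, 4.56 and 6.30 CPM in Hdac3 CKO bones, against 28.7, 20.2 and 66.4 CPM in WT bones. S100a9 stood at 6.76, 7.38 and 10.1 CPM in Hdac3 CKO bones, against 47.5, 38.8 and 108 CPM in WT bones. Every Hdac3 CKO library was lower than every WT library for both genes, and WT replicate 3 held more than either other WT library. The fold change was -2.76 ± 0.41 for S100a8 (SE on the log2 scale, adjusted p 0.0217 in edgeR) and -3.00 ± 0.38 for S100a9 (adjusted p 0.0148 in edgeR). WT bones thus held 6.79 times as much S100a8 RNA and 8.01 times as much S100a9 RNA as Hdac3 CKO bones. Without WT replicate 3 the log2 fold changes were -2.11 for S100a8 and -2.42 for S100a9. Scaled to the gene length in the deposited table, these were the most abundant members after Anxa1 in Hdac3 CKO and the most abundant of all in WT, where S100a9 averaged 124 and S100a8 98.1 CPM per kilobase. The ratio of S100a9 to S100a8 CPM was 1.10, 1.62 and 1.60 in Hdac3 CKO and 1.66, 1.92 and 1.62 in WT.

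Retnlg, a resistin-like protein secreted by mouse neutrophils, showed the lowest fold change among the members tested. Its levels were 1.02, 0.799 and 1.26 CPM in Hdac3 CKO bones, against 8.66, 5.39 and 22.1 CPM in WT bones. The fold change was -3.55 ± 0.51 on the log2 scale, with an adjusted p of 0.0181 in edgeR, and the genotypes did not overlap. For Retnlg it was -2.78 without WT replicate 3. Stfa2l1 and BC117090 belong to the stefin A cluster of mouse chromosome 16, cytosolic inhibitors of cysteine proteases whose copies are nearly identical, so reads could be assigned to the wrong copy. Stfa2l1 had 0.726, 0.493 and 0.883 CPM in Hdac3 CKO bones, against 4.68, 2.89 and 10.3 CPM in WT bones. BC117090 was close to the limit of counting, with 2, 2 and 1 counts in the Hdac3 CKO libraries and 17, 16 and 24 counts in the WT libraries. Stfa2l1 fell with a log2 fold change of -3.08 ± 0.48 (adjusted p 0.0235) and BC117090 with -3.15 ± 0.58 (adjusted p 0.0393), both in edgeR. For Stfa2l1 the value was -2.43 without WT replicate 3. When the counts of all 7 genes of the cluster were summed, the sum was 6.66, 5.54 and 7.97 CPM in Hdac3 CKO and 35.5, 24.5 and 76.3 CPM in WT, a log2 fold change of -2.76 ± 0.39 (adjusted p 0.0184 in edgeR). The cluster as a whole was thus lower in every Hdac3 CKO library, whichever copy the reads came from.

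The remaining cytosolic members differed from these. Padi4, the enzyme that converts arginine to citrulline in histones during the release of neutrophil extracellular traps, stood at -1.18 ± 0.41 and did not pass (adjusted p 0.227 in edgeR), although its libraries did not overlap. Anxa1, an anti-inflammatory annexin that many cell types besides neutrophils make, stood at -0.06 ± 0.33. It ranged from 66.4 to 177 CPM in Hdac3 CKO and from 94.2 to 145 CPM in WT, so the genotypes overlapped fully.

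Of the 8 late granule genes present in the table, 3 fell, 4 did not pass and Fcnb was below the filter. Ngp, a granule protein of the cathelicidin and cystatin family known from the mouse (chromosome 9, 110419808 to 110423010), stood at 2.45, 1.34 and 3.07 CPM in Hdac3 CKO bones, against 8.49, 8.34 and 21.7 CPM in WT bones. Camp, the precursor of the antimicrobial peptide CRAMP (chromosome 9, 109847377 to 109849456), stood at 0.630, 0.423 and 0.767 CPM in Hdac3 CKO bones, against 1.99, 2.52 and 5.82 CPM in WT bones. Ltf, the iron-binding lactoferrin (chromosome 9, 111019292 to 111042766), stood at 2.37, 1.22 and 3.77 CPM in Hdac3 CKO bones, against 9.02, 7.72 and 25.5 CPM in WT bones. None of these overlapped between the genotypes, and WT replicate 3 was again the highest library. Ngp and Camp fell, with log2 fold changes of -2.49 ± 0.43 and -2.50 ± 0.45 and adjusted p of 0.0338 and 0.0347 in edgeR. Ltf had nearly the same fold change, -2.52 ± 0.54, with a larger standard error and an adjusted p of 0.0728, so it did not pass. Without WT replicate 3 the values were -1.88 for Ngp and -1.89 for Camp.

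Olfm4, an olfactomedin of specific granules that only some neutrophils contain, had the largest fall of the late granule genes. Its levels were 0.484, 0.634 and 0.721 CPM in Hdac3 CKO bones, against 4.08, 3.61 and 11.5 CPM in WT bones. The log2 fold change was -3.37 ± 0.48, with an adjusted p of 0.0180 in edgeR, and WT held 10.4 times the Hdac3 CKO level. The log2 value for Olfm4 was -2.64 without WT replicate 3. Lcn2, a protein that captures bacterial iron carriers, stood at -1.66 ± 0.38 (adjusted p 0.0858) and Pglyrp1, which binds bacterial cell wall, at -1.61 ± 0.40 (adjusted p 0.104), neither passing in edgeR. Hp, the haemoglobin scavenger haptoglobin, which is also made outside granulocytes, stood at -1.01 ± 0.34, with 7.35 to 7.58 CPM in Hdac3 CKO and 9.58 to 25.1 CPM in WT. Fcnb, a pattern-recognition ficolin, had 12 counts in all in Hdac3 CKO and 39 in WT. Every one of these 8 genes was lower in all Hdac3 CKO libraries than in any WT library. Chil3, the current symbol of Chi3l3, a chitinase-like protein of mouse myeloid cells, had 0.315, 0.329 and 0.163 CPM in Hdac3 CKO bones, against 1.16, 1.34 and 3.05 CPM in WT bones. It fell, at -2.77 ± 0.48 (adjusted p 0.0321 in edgeR), although it entered the test through the WT libraries alone, passed in 0 of the 6 fits that left out 1 library and may share reads with its close paralog Chil4.

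The early granule and promyelocyte genes did not pass the test, 0 of 5, with 3 of them at an unadjusted p under 0.05 in edgeR and 2 called lower by DESeq2. Mpo, which makes hypochlorous acid (chromosome 11, 87793581 to 87804413), stood at 4.19, 2.28 and 2.46 CPM in Hdac3 CKO bones, against 8.14, 5.08 and 18.7 CPM in WT bones. Elane, neutrophil elastase (chromosome 10, 79886312 to 79888216), stood at 0.630, 0.188 and 0.418 CPM in Hdac3 CKO bones, against 1.05, 0.737 and 2.66 CPM in WT bones. The genotypes did not overlap for either gene, but the lowest WT library, replicate 2, was only just above Hdac3 CKO replicate 1. Their log2 fold changes were -1.84 ± 0.45 and -1.84 ± 0.57, with adjusted p of 0.105 and 0.186 in edgeR.

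Prtn3 (proteinase 3) and Ctsg (cathepsin G), 2 further azurophil proteases, were nearer to no difference. Prtn3 had 1.91, 1.69 and 1.35 CPM in Hdac3 CKO bones, against 2.27, 0.640 and 4.39 CPM in WT bones. Ctsg had 1.89, 1.39 and 1.00 CPM in Hdac3 CKO bones, against 1.97, 1.28 and 1.97 CPM in WT bones. For Prtn3 the lowest library of all was WT replicate 2, and for Ctsg Hdac3 CKO replicate 1 stood level with the highest WT libraries. The log2 fold changes of -0.56 ± 0.54 and -0.29 ± 0.32 were no larger than about 1 standard error. Exons of Prtn3 overlap those of Plppr3 on the opposite strand, which had 8744 counts in all, against 209 for Prtn3 in Hdac3 CKO and 370 in WT. Those of Mpo overlap Gm11505 on the opposite strand, which had 343 counts in all, against 376 for Mpo in Hdac3 CKO and 1613 in WT. Since the strand setting of the counting is not given, reads of these pairs cannot be told apart. Ms4a3, a membrane protein of granulocyte and monocyte progenitors, had 10, 0 and 4 counts in Hdac3 CKO and 17, 11 and 50 counts in WT, at -2.19 ± 0.90.

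The transcription factors were low in all libraries. Cebpe, the driver of late granule genes, had 7, 0 and 2 counts in Hdac3 CKO and 10, 11 and 38 counts in WT, below the filter. Gfi1, a repressor needed for neutrophil differentiation, stood at 0.751, 0.822 and 0.883 CPM in Hdac3 CKO bones, against 1.69, 0.950 and 1.65 CPM in WT bones. Its genotypes did not overlap, but the fold change of -0.80 ± 0.32 did not pass, with an adjusted p of 0.292 in edgeR. Exons of Gfi1 overlap those of A430072P03Rik on the opposite strand.

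**Figure D2:**
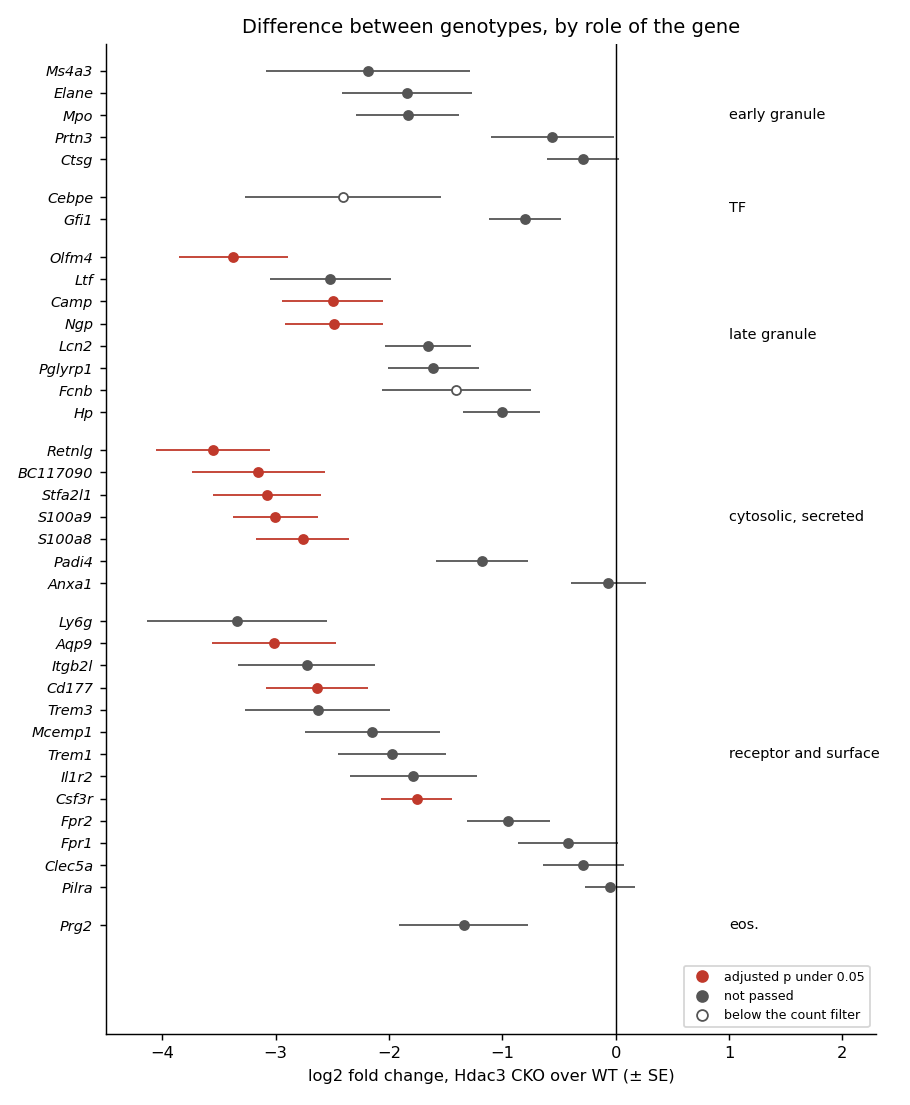
Log2 fold change (Hdac3 CKO over WT) with its standard error for each member, grouped by role; red marks an adjusted p under 0.05 in edgeR and open points are the 2 members below the count filter, taken from the fit without a filter. All points lie below 0, from -3.55 for Retnlg to -0.05 for Pilra.

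Early and late genes were set side by side within each library, where depth and scaling cancel in a ratio. The summed CPM of Mpo, Elane and Prtn3 was 6.73, 4.16 and 4.23 in Hdac3 CKO and 11.5, 6.46 and 25.7 in WT. The sum of Ltf, Camp and Ngp was 5.45, 2.98 and 7.60 in Hdac3 CKO and 19.5, 18.6 and 53.0 in WT. For S100a8 and S100a9 it was 12.9, 11.9 and 16.4 in Hdac3 CKO and 76.2, 59.0 and 174 in WT. The early sum overlapped between the genotypes, at Hdac3 CKO replicate 1 and WT replicate 2. The sum of Ltf, Camp and Ngp and the S100 sum did not. Taken singly, Mpo and Elane did not overlap, whereas Prtn3 did, with its lowest level in WT replicate 2. The sum of Ltf, Camp and Ngp over the early sum was 0.809, 0.718 and 1.8 in Hdac3 CKO and 1.70, 2.88 and 2.06 in WT. This ratio overlapped at Hdac3 CKO replicate 3 and WT replicate 1. Of the late granule genes tested, it left out Olfm4 (-3.37 as a log2 fold change). It also left out Lcn2 (-1.66), Pglyrp1 (-1.61) and Hp (-1.01), which were nearer 0 than Mpo and Elane (-1.84 each). A ratio with the whole late granule list was not taken. The S100 sum over the early sum was 1.91, 2.87 and 3.87 in Hdac3 CKO and 6.65, 9.14 and 6.78 in WT, without overlap. Since the genes of these sums were chosen with results known, the ratios carry no test. Prtn3 is part of the early sum, with the overlap of exons noted above. The ratio of Ltf to Mpo alone, 0.566, 0.536 and 1.53 in Hdac3 CKO and 1.11, 1.52 and 1.36 in WT, overlapped.

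**Figure D3:**
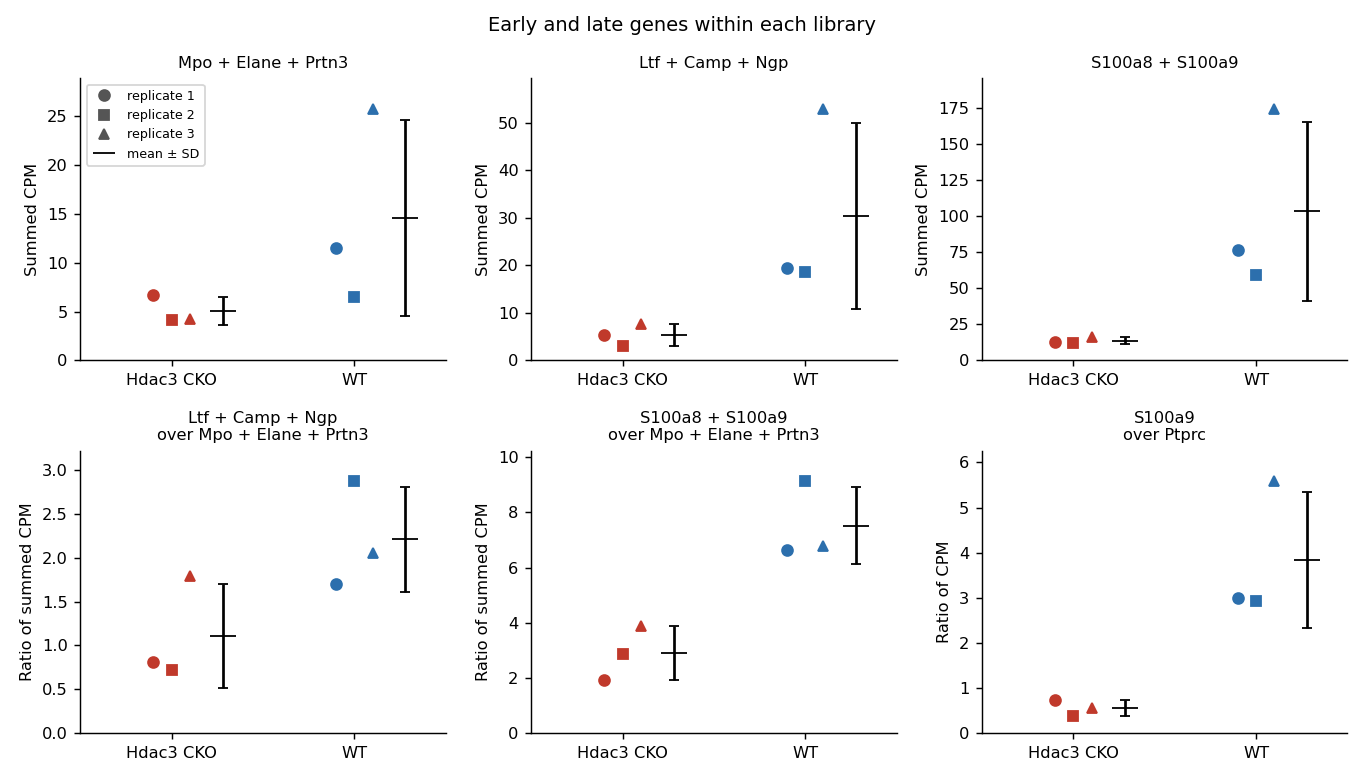
Summed CPM (top) of early granule genes (Mpo, Elane, Prtn3), late granule genes (Ltf, Camp, Ngp) and the S100 pair, and ratios within a library (bottom). The 3 Hdac3 CKO libraries are in red on the left and the 3 WT libraries in blue on the right, with mean ± SD. The S100 sum averaged 13.7 ± 2.3 CPM in Hdac3 CKO and 103 ± 62 CPM in WT (SD, n = 3 each), while the early granule sum averaged 5.04 CPM in Hdac3 CKO and 14.6 CPM in WT.

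Of the 13 receptor and surface genes, 3 fell and 10 did not pass. Csf3r, the receptor of the neutrophil growth factor G-CSF (chromosome 4, 126024550 to 126044440), stood at 3.08, 2.51 and 3.63 CPM in Hdac3 CKO bones, against 8.55, 6.88 and 15.7 CPM in WT bones. It fell, at -1.76 ± 0.31 (adjusted p 0.0347 in edgeR), and WT held 3.38 times the Hdac3 CKO level. Cd177, a surface protein of neutrophils that is stored in specific granules, had 0.315, 0.235 and 0.511 CPM in Hdac3 CKO bones, against 1.67, 1.45 and 3.52 CPM in WT bones. Aqp9, a channel for water and glycerol, had 4, 1 and 6 counts in Hdac3 CKO and 47, 28 and 36 counts in WT. Both fell, Cd177 with a log2 fold change of -2.63 ± 0.45 (adjusted p 0.0307) and Aqp9 with -3.02 ± 0.55 (adjusted p 0.0373) in edgeR, and neither overlapped between the genotypes.

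Ly6g, the antigen most used to mark mouse neutrophils, had only 5 counts in all Hdac3 CKO libraries together, 4, 0 and 1, and 65 in WT, at 20, 14 and 31. Its log2 fold change of -3.34 ± 0.79 had a large standard error and did not pass (adjusted p 0.0914 in edgeR). Itgb2l, an integrin beta 2-like subunit found in the mouse, stood at -2.73 ± 0.61 and Trem3, an activating receptor of mouse myeloid cells, at -2.63 ± 0.64. The related Trem1, an amplifier of inflammatory signals, stood at -1.97 ± 0.47, Mcemp1, a membrane protein first described in mast cells, at -2.15 ± 0.60 and Il1r2, a decoy receptor for interleukin 1, at -1.79 ± 0.56. None of these passed in edgeR, with adjusted p between 0.0742 and 0.194, and only Il1r2 overlapped between the genotypes.

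The formyl peptide receptors, which guide neutrophils towards bacteria, stood at -0.95 ± 0.37 (Fpr2) and -0.42 ± 0.44 (Fpr1). Exons of Fpr2 overlap those of Fpr3. Clec5a, a lectin receptor of myeloid cells, stood at -0.28 ± 0.36, and the inhibitory receptor Pilra at -0.05 ± 0.22, both overlapping between the genotypes. Pilra shares exonic sequence with Zcwpw1 on the opposite strand, which had 3133 counts in all, against 461 for Pilra in Hdac3 CKO and 577 in WT. Prg2, the major basic protein of eosinophil granules, had 9, 8 and 2 counts in Hdac3 CKO and 20, 14 and 25 counts in WT, at -1.34 ± 0.57, and did not pass (adjusted p 0.321 in edgeR). Of 8 other eosinophil markers 1 reached the test, Ccr3, the eotaxin receptor, which had 150 counts in Hdac3 CKO and 123 in WT and stood at 0.55 ± 0.34 without passing. Ear1 and Ear6 had 0 counts in every library. Epx, the eosinophil peroxidase, had 8 counts in Hdac3 CKO and 33 in WT, while Siglecf had 24 in Hdac3 CKO and 30 in WT, and Il5ra 11 in Hdac3 CKO and 14 in WT. Epx alone of the 8 did not overlap between the genotypes.

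The calls rested on all libraries together. Leaving out Hdac3 CKO replicate 1 left 0 members among the 75 genes that fell, against 91 genes with all libraries. It was 2 members of 51 genes when replicate 2, and 1 member of 10 genes when replicate 3 of that genotype was left out. The number was 3 members of 13 genes without WT replicate 1, 5 of 23 without WT replicate 2 and 5 of 40 without WT replicate 3. S100a9 and Olfm4 fell in 4 of these 6 fits, Retnlg in 3, S100a8 and Stfa2l1 in 2, and the other 6 of the 11 in none. In every one of the 6 fits all 11 genes had a log2 fold change below 0 and an unadjusted p under 0.05 in edgeR. The 11 had been chosen by their adjusted p over the same libraries, so this was largely fixed in advance and is no test. With Y-linked expression as a covariate 1 member, S100a9, was among the 15 genes that fell, and 23 members were lower at an unadjusted p under 0.05. Without both cartilage-rich libraries 0 members fell, and 19 were lower at an unadjusted p under 0.05 in edgeR, in a fit that called 0 of all genes. The share of all genes lower at that unadjusted p was not taken in the covariate fit or in this one. The counts of 23 and 19 therefore have no background beside them.

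WT replicate 3 stood apart within its group. It was the highest WT library for 31 of the 36 members, and its level over the mean of the other WT libraries had a median of 2.46, from 0.874 to 3.85. WT replicate 2 was the lowest WT library for 28 members. Without WT replicate 3 the median log2 fold change of the 34 members tested was -1.25, against -1.91 with it. Prtn3 turned to 0.18 and Fpr1 to 0.07 in that fit. WT replicate 3 was also the cartilage-rich WT library, and the part of its tissue makeup in these levels was not tested.

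The other genes of the neutrophil programme were described from 4 lists of 56 genes in all. Of these 7 fell, 0 rose, 45 did not pass and 4 were below the filter, and 13 were lower and 8 higher at an unadjusted p under 0.05 in edgeR. Among 20 other granule and cytosolic proteins 6 fell, with a list median of -0.20 among those tested, against 0.00088 over all genes tested. Mmp8, the neutrophil collagenase, had 1.19, 1.29 and 2.21 CPM in Hdac3 CKO bones, against 7.68, 6.38 and 20.1 CPM in WT bones, and fell by 2.86 on the log2 scale (adjusted p 0.0270 in edgeR). The stefin A genes Gm5483 (-3.31 ± 0.42), Stfa2 (-2.95 ± 0.43), BC100530 (-2.83 ± 0.44) and Stfa1 (-2.65 ± 0.40) fell, with Stfa3 at -2.10 ± 0.49 not passing. Ifitm6, an interferon-induced membrane protein expressed in mouse myeloid cells, fell too, at -2.65 ± 0.52. Without WT replicate 3 the values were -2.17 for Mmp8, -2.04 for Stfa1 and -1.87 for Ifitm6. In the same list Lyz2, the lysozyme of macrophages and neutrophils alike, stood at -0.03 ± 0.20, and Mmp9, which osteoclasts also make in quantity, at 0.93 ± 0.24.

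The genes of the NADPH oxidase and of adhesion are shared by neutrophils, macrophages and osteoclast precursors. Of 12, 1 fell and 0 rose, with a list median of 0.17. Cybb, the catalytic oxidase subunit, stood at 0.32 ± 0.17, and the integrin genes Itgam and Itgb2 at 0.13 ± 0.18 and 0.65 ± 0.22, none passing.

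Granulopoiesis factors numbered 12, of which 0 fell and 0 rose, with 1 lower and 2 higher at an unadjusted p under 0.05 in edgeR and 1 lower and 1 higher called by DESeq2. Myb, a transcription factor of immature blood cells, stood at -1.36 ± 0.30 (adjusted p 0.0710) and Spi1, which encodes PU.1 and is also expressed in macrophages and osteoclasts, at 0.77 ± 0.20 (adjusted p 0.114 in edgeR). Cebpa, needed for the step to granulocyte progenitors, stood at 0.00 ± 0.16. Csf3, which encodes G-CSF, had 0, 18 and 1 counts in Hdac3 CKO and 12, 0 and 9 counts in WT, too few to compare at this depth. Among 12 neutrophil chemokines and receptors 0 fell and 0 rose, with 2 lower and 1 higher at an unadjusted p under 0.05 in edgeR and 0 called by DESeq2. The chemokine receptor Cxcr2, which draws mature neutrophils out of the marrow, stood at -1.09 ± 0.37, and the complement receptor C5ar1 at 0.73 ± 0.28. Cxcl12, the stromal chemokine that holds neutrophils in the marrow, stood at -0.38 ± 0.15, with 130 to 172 CPM in Hdac3 CKO and 192 to 225 CPM in WT.

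Markers of other blood cells were read beside these values. Of 5 pan-leukocyte genes 0 fell and 0 rose in edgeR, with 2 higher at an unadjusted p under 0.05 and 1 called higher by DESeq2, and their summed CPM was 143 to 167 in Hdac3 CKO and 91.3 to 139 in WT. Ptprc, the common leukocyte antigen CD45, stood at -0.06 ± 0.27. The ratio of S100a9 to Ptprc CPM was 0.734, 0.385 and 0.557 in Hdac3 CKO and 3.0, 2.92 and 5.59 in WT, so the genotypes did not overlap relative to this leukocyte gene either. The ratio of Csf3r to Csf1r, the receptors of the granulocyte and the macrophage growth factor, was 0.0163, 0.0144 and 0.0243 in Hdac3 CKO and 0.106, 0.0761 and 0.139 in WT. Csf1r itself rose, at 0.85 ± 0.16 (adjusted p 0.0431 in edgeR), so this ratio holds both the fall of Csf3r and the rise of Csf1r. The ratio of Mpo to Ptprc overlapped, at 0.455, 0.119 and 0.136 in Hdac3 CKO and 0.513, 0.383 and 0.966 in WT.

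By lineage, the lists went in different directions. Of 9 macrophage genes 5 rose and 0 fell, with summed CPM of 536 to 617 in Hdac3 CKO and 307 to 326 in WT. Of 6 monocyte genes 2 rose and 0 fell, with sums of 211 to 294 in Hdac3 CKO and 184 to 254 in WT. The macrophage sums did not overlap between the genotypes, whereas the monocyte sums did. Klf4 made up much of the monocyte sums, with 76.3 to 156 CPM in Hdac3 CKO and 99.3 to 157 CPM in WT, and overlapped. Taken singly, 3 of the 6 monocyte genes were higher in Hdac3 CKO without overlap and 3 overlapped. A monocyte sum without Klf4 was not taken. Of 8 B lymphoid genes 2 fell and 0 rose, with a list median of -2.08 and sums of 26.1 to 42.1 CPM in Hdac3 CKO and 59.3 to 86.1 CPM in WT. Rag1, 1 of those 2, and Vpreb3 of the same list entered the test through the WT libraries alone. Ebf1 made up most of the B lymphoid sums, with 21.9 to 38.7 CPM in Hdac3 CKO and 48.8 to 76.4 CPM in WT. It stood at -0.97 ± 0.23. Of 9 erythroid genes 2 fell and 0 rose, with a list median of -1.01 and sums of 170 to 213 CPM in Hdac3 CKO and 266 to 437 CPM in WT. The summed CPM of all 36 members, 120.5 to 224 in Hdac3 CKO and 234 to 505 in WT, did not overlap between the genotypes, nor did the B lymphoid and erythroid sums. Anxa1 made up much of the member sum, with 66.4 to 177 CPM in Hdac3 CKO and 94.2 to 145 CPM in WT. Without Anxa1 the member sum was 47.2 to 58.3 CPM in Hdac3 CKO and 140 to 397 CPM in WT.

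In the megakaryocyte list 1 of 8 genes, Pf4, rose and 0 fell. Pf4 stood at 0.97 ± 0.15 (adjusted p 0.0216 in edgeR), whereas 6 of the 8 were below 0 in the fit without a count filter. Of 8 mast and basophil genes and 8 blood stem and progenitor genes, 0 fell or rose. At an unadjusted p under 0.05 in edgeR 0 and 2 of these were lower, and DESeq2 called 0 in either list. The medians of the megakaryocyte, mast and basophil, and stem and progenitor lists were -0.37, -0.037 and -0.21. Of 8 T and NK genes 2 reached the test and neither passed, with sums of 1.57 to 1.98 CPM in Hdac3 CKO and 1.65 to 2.44 CPM in WT. The part of any of these cell types in the level of a member was not tested, and the difference between the lists was not tested.

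**Figure D4:**
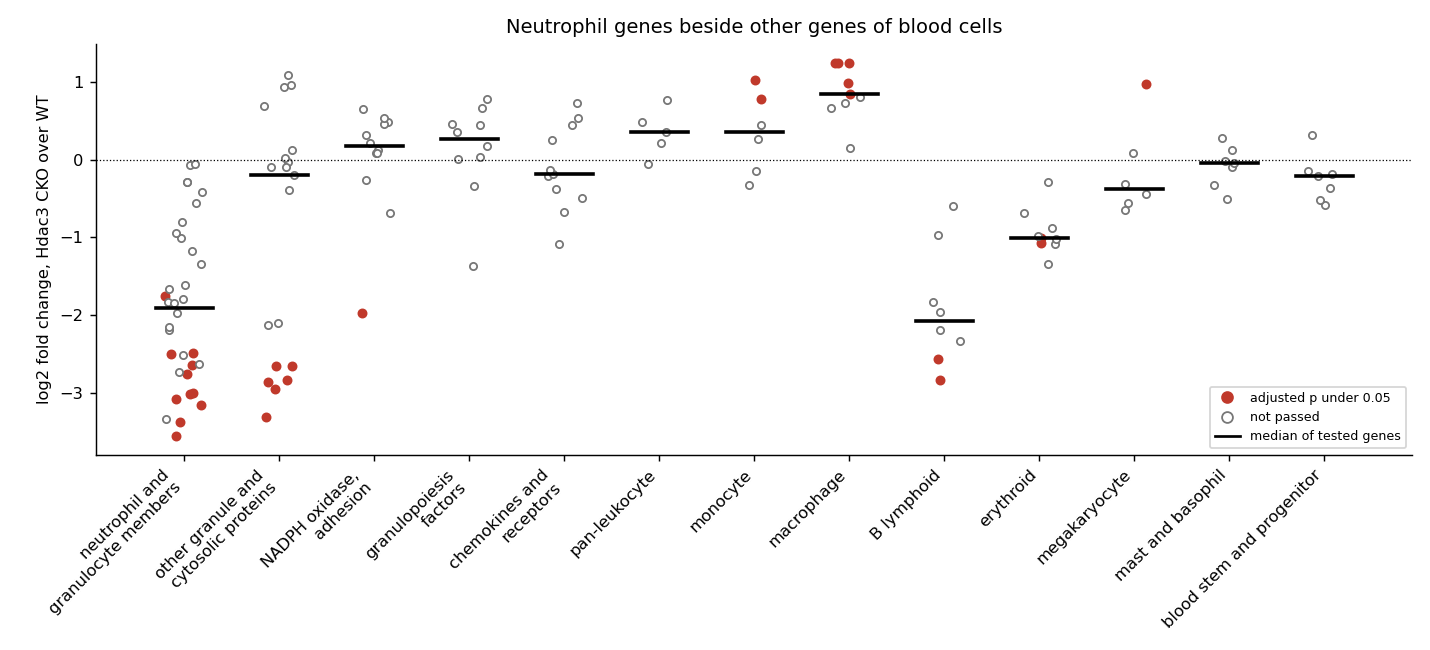
Log2 fold change (Hdac3 CKO over WT) of each tested gene in the neutrophil and granulocyte members, in the 4 further lists of the neutrophil programme and in lists of other blood cells; filled red points passed at an adjusted p under 0.05 in edgeR and black lines are medians. T and NK genes and eosinophil genes, with 2 and 1 tested, are not drawn. The medians were -1.91 for the members, -2.08 for B lymphoid, -1.01 for erythroid and 0.85 for macrophage genes.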

How the data were processed

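RNA from cleaned limb bones of 1-day-old pups was extracted with TRIzol and made into mRNA libraries with TruSeq v2, per the labels' protocols. The submitters' processing notes name bcl2fastq 1.8.4, TopHat2 2.1.0, Subread, featureCounts and the mm10 build. The authors deposited a table of raw read counts and a table of RPKM values, each per gene and library. The way RPKM was computed, like the strand setting of the counting, is not given in the sources used here.

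Counts of 43346 genes were tested for Hdac3 CKO against WT with edgeR 4.0.16 in R 4.3.3. The test used TMM scaling, filterByExpr (minimum count 10, about 0.215 CPM in 3 libraries), robust quasi-likelihood fits and Benjamini-Hochberg adjustment over 20210 genes, with a threshold of 0.05. These hold 99.9% of all counts, and 12478 genes had no count. TMM factors ranged from 0.8804 to 1.0889. The fit leaves 4 residual degrees of freedom, and for a single value an exact permutation test of 3 against 3 libraries cannot go below 0.1. Alternatives were other scalings and filters, DESeq2 1.42.0, limma 3.58.1 (voom on counts, and log2(RPKM + 1) or log2(RPKM + 0.1) on the deposited RPKM), each library left out in turn, both cartilage-rich libraries left out, and a Y-linked covariate. The steps were tested on simulated data.

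The members, the further lists and the tests were chosen with earlier results of these data known. Named by the rule were the defining neutrophil genes and every other member past the threshold in full, the other members by their fold change, and from each further list the members that passed plus those with the smallest p. The values of 1 gene that this rule names are not reported here. Lyz2, Mmp9, Cybb, Itgam, Cebpa, Csf3, Cxcl12, Stfa3, Chil3 and the genes of the ratios were chosen after their values were seen. Promoter windows are RefSeq sequence.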

Additional observations from a re-analysis of the deposited data

How the results depend on the processing

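Over 19 other settings, 0 members rose in any, and each of the 11 members that fell was lower at an unadjusted p under 0.05 wherever it was tested. Since the 11 were chosen by adjusted p in the same libraries, the latter was largely fixed in advance and is no test. The number called differed. It was 19 with DESeq2, 2 with limma-voom and 6 with limma on log2(RPKM + 1). It was 0 when both cartilage-rich libraries were left out, 1 when Y-linked expression was a covariate, and from 0 to 5 with 1 library left out. DESeq2 called 9 of the 11 and gave BC117090 and Aqp9 no adjusted p. Without a filter on low counts 12 members fell, of which 7 were among the 11, and S100a8, S100a9, Ngp and Retnlg no longer passed. Of the further neutrophil genes, 7 fell, but 1 with limma-voom, 4 with limma on log2(RPKM + 1), 0 when both cartilage-rich libraries were left out, 0 when Y-linked expression was a covariate and 0 to 5 with 1 library left out. Of these genes 0 rose, but 1 (Spi1) without a filter, 3 (Mmp9, Lrg1, Spi1) with DESeq2 and 0 to 1 (Mmp9) with 1 library left out. The cause of these moves was not tested.

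The direction turned for 5 members, none of which passed the test. Without both cartilage-rich libraries the log2 fold change was 0.30 for Prtn3, 0.0078 for Ctsg, 0.023 for Anxa1 and 0.079 for Fpr1. With 1 library left out it ranged from -1.01 to 0.18 for Prtn3, from -0.58 to 0.19 for Anxa1, from -0.70 to 0.068 for Fpr1 and from -0.15 to 0.087 for Pilra. The members' median log2 fold change was -0.66 with limma on log2(RPKM + 1), where the added 1 is large against low levels, and lay between -2.23 and -1.25 with 1 library left out. Scaling by library totals moved the median of all genes to -0.18 and that of the members to -2.09, and called the same 11 members. No paired analysis was possible because the labels give no replicate numbers; the numbers used here follow the order of the sample records within each genotype and pair no libraries. Members with few counts in Hdac3 CKO, such as BC117090, Aqp9, Ly6g and Cebpe, are measured with large counting error.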
